A study of Bos taurus with 28 samples.

Results

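Of the 27607 genes in the deposited table, 4 that encode secreted or cell surface proteins of the matrix and of cell adhesion are described here across the calves. They are SPON1 (ENSBTAG00000009150), VCAN (ENSBTAG00000014906), CHL1 (ENSBTAG00000002471) and SOST (ENSBTAG00000053970). They were chosen by name from the list in which the study pairs identifiers and symbols, a list of genes selected on their difference between the diets in these same calves. The difference between diets is therefore given below as a description. Calls by limma are printed beside it, but after this selection they are no independent evidence. Permutation tests were kept for variation among calves. All 4 genes passed the filter on low values.

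The tissue was the anterior pituitary of Angus × Holstein-Friesian heifers, taken at 21 weeks of age, and its messenger RNA was sequenced. Calves had been kept on a high (HI, n = 13) or a moderate (MOD, n = 15) plane of nutrition. During a calf phase of 8 weeks HI calves received 1.5 kg (10 litres) of milk replacer per day with concentrates to appetite, and MOD calves received 0.5 kg (4 litres) of milk replacer and 1 kg of concentrates per day. A post-weaning phase of 11 weeks followed, with unrestricted hay for all calves. Concentrates were then 1 kg per day for MOD and were not limited for HI. The target gains were 1.2 and 0.5 kg per day. Each library came from 1 calf, and values are CPM, that is, reads of a gene per 1000000 reads on genes after scaling between libraries.

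The matrix around cells is built of collagens, of glycoproteins such as the spondins, and of proteoglycans, which carry long sugar chains and bind water and hyaluronan. SPON1 encodes F-spondin, a secreted matrix glycoprotein known from axon guidance. VCAN encodes versican, a large chondroitin sulfate proteoglycan that binds hyaluronan. CHL1 is a close homologue of L1, an immunoglobulin-type adhesion molecule of the cell surface known from neurons. SOST encodes sclerostin, a secreted inhibitor of Wnt signalling that binds LRP co-receptors and is best known from bone.

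Libraries held between 12669266 and 18217216 reads on genes, with medians of 15822757 in HI and 15923476 in MOD. Pituitary markers were high in every calf. The summed level of the lactotroph markers PRL and DRD2 lay at 70265 to 268435 CPM (HI) and 32173 to 145889 CPM (MOD). That of CSHL1 and GHRHR, used for somatotrophs, lay at 60869 to 151152 CPM (HI) and 92747 to 275178 CPM (MOD). FSHB, the gonadotroph marker, lay at 271 to 2949 CPM (HI) and 347 to 3289 CPM (MOD). Medians in HI and MOD were 192322 and 76251 CPM for the lactotroph sum and 79374 and 131929 CPM for the somatotroph sum. For FSHB they were 429 and 1478 CPM. Markers of cells other than endocrine cells were detected too, some at a low level. ACTA2 and LMOD1 of smooth muscle summed to between 17.3 and 69.1 CPM in HI and between 25.4 and 142 CPM in MOD, and CX3CR1 and TIMD4 of macrophages to between 23.1 and 112 CPM in HI and between 16.6 and 66.5 CPM in MOD. Their medians in HI and MOD were 40.3 and 61.4 CPM for smooth muscle and 60.2 and 42.2 CPM for macrophages. MYH4 and MYH6 of skeletal or cardiac muscle summed to a median of 16.4 CPM in HI and 8.56 CPM in MOD, and AURKB, CKS2 and IQGAP3 of dividing cells to 9.84 and 5.34 CPM. CD79B of B cells had a median of 0.73 CPM in HI and 1.44 CPM in MOD. No marker of these lists was at 0 in any calf, but MYH4 fell to 2 reads in MOD calf 1392. The 8 immediate early genes listed for handling summed to between 70.0 and 477 CPM in HI (median 130) and between 117 and 970 CPM in MOD (median 383). Whether handling moved them in these calves was not tested. All markers named here came from the study's list of genes selected on their diet difference in these calves. Their differences between the diets are therefore no independent evidence of a change in cell types or handling. In bulk tissue, fewer cells of a type and less RNA per cell cannot be told apart. The part of these cell types and of handling in the diet differences of the 4 genes was not tested.

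SPON1 and CHL1 were higher and VCAN and SOST lower in HI than in MOD calves. By limma, all 4 passed an adjusted p below 0.05 with a fold change above 1.5, as they were selected to do, beside 0.837% of the 14939 genes tested (0.408% higher and 0.428% lower in HI). SPON1 separated the diets without overlap, whereas the ranges of the other genes overlapped.

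SPON1 was measured at 51.0 CPM in the lowest HI calf, 76.1 CPM in the median and 96.2 CPM in the highest. In MOD calves the lowest was 19.6 CPM, the median 32.5 CPM and the highest 49.4 CPM, so that every HI calf lay above every MOD calf. The means were 74.3 ± 13.2 CPM in HI (SD, n = 13) and 32.6 ± 9.07 CPM in MOD (SD, n = 15). The difference was 1.21 on the log2(CPM + 0.5) scale with a standard error of 0.12, or 2.31-fold. SPON1 also varied least among calves of one diet, with a coefficient of variation of 17.8% in HI and 27.8% in MOD, against 42.4% to 78.9% for the other 3 genes.

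CHL1, the adhesion molecule, was measured at 92.2 CPM in the lowest HI calf, 149 CPM in the median and 381 CPM in the highest. In MOD calves the lowest was 45.3 CPM, the median 86.9 CPM and the highest 206 CPM. All 13 HI calves lay above the MOD median, but 8 of them lay inside the MOD range, and 6 of the 15 MOD calves lay inside the HI range. A pair of HI calves stood above the rest, calf 3620 at 381 CPM and calf 2120 at 343 CPM, where the next highest had 232 CPM. The means were 187 ± 87.8 CPM in HI (SD, n = 13) and 103 ± 43.6 CPM in MOD (SD, n = 15), and the difference was 0.85 with a standard error of 0.21 on the log2(CPM + 0.5) scale. Without calf 3620 it was 0.75.

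VCAN was measured at 19.6 CPM in the lowest HI calf, 43.4 CPM in the median and 167 CPM in the highest. In MOD calves the lowest was 38.3 CPM, the median 139 CPM and the highest 193 CPM. The MOD calves did not spread evenly over this range. In 7 of them VCAN lay between 38.3 and 72.6 CPM and in the other 8 between 139 and 193 CPM, with no calf in a gap that took up 40.3% of the log2 range. Among HI calves, 12 lay between 19.6 and 70.7 CPM and calf 553 alone at 167 CPM. The lower MOD calves thus overlapped with the HI calves, and calf 553 lay among the higher MOD calves. The mean was 51.0 ± 37.1 CPM in HI (SD, n = 13), and that of MOD, 111 ± 52.5 CPM (SD, n = 15), fell inside the gap. The difference between the diets was −1.16 with a standard error of 0.27 on the log2(CPM + 0.5) scale, and −1.32 without calf 553.

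SOST had the highest coefficient of variation of the 4 genes in either diet, 78.9% in HI and 70.8% in MOD. It was measured at 1.31 CPM in the lowest HI calf, 3.59 CPM in the median and 14.0 CPM in the highest. In MOD calves the lowest was 2.25 CPM, the median 10.7 CPM and the highest 35.0 CPM, a spread of 15.5-fold. Of the HI calves 12 of 13 lay below the MOD median, and 8 lay inside the MOD range. The means were 4.62 ± 3.64 CPM in HI (SD, n = 13) and 13.3 ± 9.43 CPM in MOD (SD, n = 15), and the difference was −1.36 with a standard error of 0.36 on the log2(CPM + 0.5) scale. SOST rested on a median of 48 reads in HI and 196 reads in MOD. Counting error came to 3.84% of its log2 variance among HI calves and 1.23% among MOD calves. Its difference between diets lost the call when HI calf 1388, 2120 or 2528 was left out, with values of −1.31, −1.26 and −1.29.

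**Figure D1:**
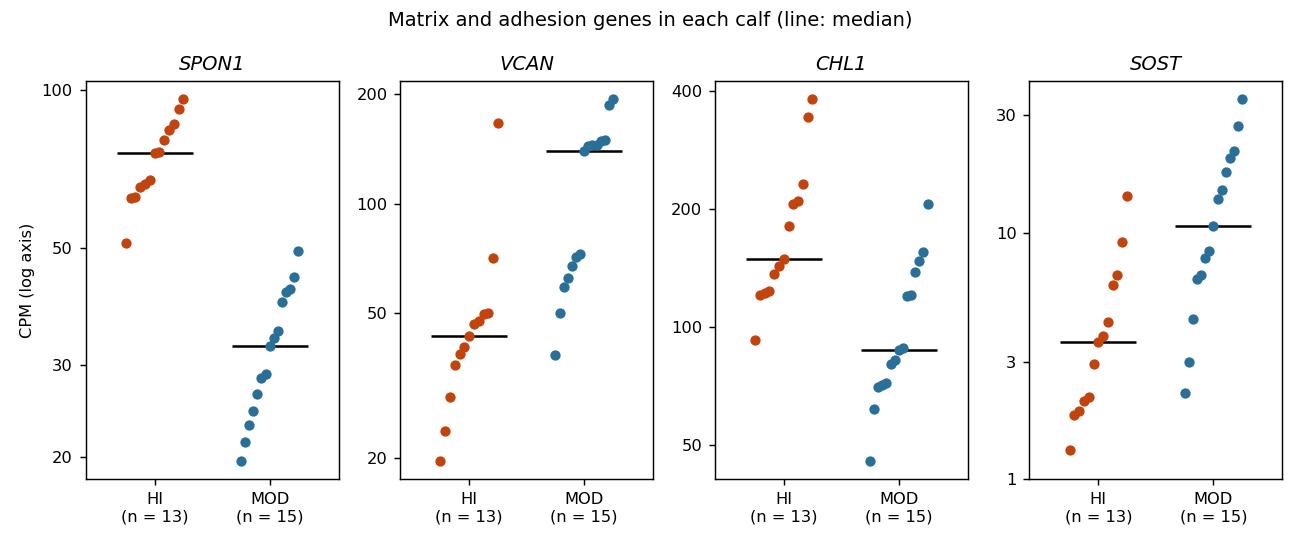
Level of SPON1, VCAN, CHL1 and SOST (CPM, log axis) in each of 13 HI and 15 MOD calves; a point is a calf, sorted by level within a diet, and the line is the median. SPON1 shows no overlap between diets, VCAN in MOD falls into 7 calves up to 72.6 CPM and 8 calves from 139 CPM, and HI calf 553 stands alone at 167 CPM.

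The study's list was selected on the difference between diets, not on how genes vary together among calves of one diet. The 4 genes were taken from it with earlier results of these data known, so relations among them may not be free of that choice. Pearson's r for the 6 pairs in each diet ran from −0.35 to 0.61. None of the 12 relations passed an adjusted p below 0.05 by the 2-sided permutation test, and 1 had an unadjusted p below that value. This was VCAN with SOST in HI calves, the pair that was lower in HI (r = 0.61, permutation p = 0.0243, adjusted p = 0.292, n = 13). Spearman's rho was 0.44 (permutation p = 0.134, adjusted p = 0.682). Dropping the 2 calves most distant from the VCAN median gave r = 0.41, and without calf 553, the highest calf of its diet for both genes, it was 0.29. Within the MOD ranges of VCAN the pair gave r = 0.47 in the lower 7 calves (exact permutation p = 0.281) and 0.28 in the upper 8 (exact permutation p = 0.473). SPON1 and CHL1, the pair that was higher in HI, gave r = −0.04 in HI and −0.22 in MOD calves, with adjusted permutation p of 0.8996 and 0.849. Single calves moved these values, in HI to 0.46 without calf 3620 and −0.34 without calf 2120, and in MOD to between −0.40 (without calf 1057) and −0.12 (without calf 2346).

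HI calf 553 had the highest VCAN and the highest SOST of its diet. HI calf 2120 had the highest SPON1 and the lowest SOST of its diet. MOD calf 1057 had the highest CHL1 and the lowest SOST. MOD calf 1392 had the highest VCAN, at 193 CPM, and the lowest CHL1, at 45.3 CPM. HI calf 3620 had the highest CHL1 and the lowest SPON1.

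Relations of the 4 genes with cell type markers, with the immediate early gene EGR1 and with library size were examined within each diet. Of these 56 relations, 3 passed an adjusted p below 0.05 by the 2-sided permutation test on Pearson's r (5 unadjusted), and 1 passed on Spearman's rho (4 unadjusted). CHL1 was lower in MOD calves with more CX3CR1, the fractalkine receptor of macrophages (r = −0.73, permutation p = 0.00201, adjusted p = 0.0375, n = 15). Spearman's rho was −0.61 (permutation p = 0.0191, adjusted p = 0.357), and dropping the 2 calves most distant from the CX3CR1 median gave r = −0.70, with which the adjusted p no longer passed. Among HI calves the same pair gave r = −0.24 (adjusted permutation p = 0.649), and the difference between the diets was not tested.

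The relation that passed on both coefficients was CHL1 with PRL, the hormone of lactotrophs, in HI calves. Over all 13 calves rho was 0.88 (permutation p = 0.00017, adjusted p = 0.00952) and r was 0.79 (permutation p = 0.00139, adjusted p = 0.0375), and r stayed between 0.75 and 0.84 when any 1 calf was left out. Dropping the 2 calves most distant from the PRL median gave r = 0.81, with which the adjusted p again no longer passed. In MOD calves the pair gave r = 0.39 (adjusted permutation p = 0.609), with 0.11 without calf 1392 and 0.58 without calf 2551, and the difference between the diets was not tested. PRL left a gap of 36.0% of its log2 range among HI calves, as 6 calves had PRL between 70067 and 118463 CPM and 7 between 191905 and 267896 CPM. Within the lower range r was −0.04 (exact permutation p = 0.928) and rho 0.20 (exact permutation p = 0.714). Within the upper range r was 0.54 (exact permutation p = 0.198) and rho 0.79 (exact permutation p = 0.0480). The last of the 3 was VCAN with FSHB, the beta chain of follicle-stimulating hormone, in MOD calves, positive with an adjusted permutation p of 0.0342 for r and 0.0902 for rho. Since VCAN itself fell into 2 separate ranges there, its coefficients are given within them, which leaves out the contrast between the ranges. Across the gap, FSHB had a median of 987 CPM in the 7 calves of low VCAN and 2005 CPM in the 8 of high VCAN. Within the 7 calves of low VCAN r was 0.40 (exact permutation p = 0.374), and within the 8 calves of high VCAN it was 0.27 (exact permutation p = 0.499). None of 18 such relations within ranges passed an adjusted p below 0.05, on r or on rho, and ranges this narrow and of 6 to 8 calves leave such tests little reach. Among HI calves VCAN with FSHB gave r = 0.60 (adjusted permutation p = 0.436), which was 0.02 without calf 553, the calf with the highest level of both genes.

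With both diets together, each gene centred within its diet and calves permuted within diet, 2 of 28 relations passed. These were VCAN with FSHB (adjusted permutation p = 0.00448), across the gap in VCAN, and CHL1 with PRL (r = 0.60, adjusted permutation p = 0.0178). CHL1 with CX3CR1 gave r = −0.51 and did not pass (adjusted permutation p = 0.0676).

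SPON1 had no relation of this family with an adjusted p below 0.05. SOST with library size gave its largest coefficient in HI calves (r = −0.57, permutation p = 0.0440, adjusted p = 0.436), and in MOD calves r was −0.25. SOST with ACTA2, the smooth muscle actin, gave r = 0.48 in HI and 0.47 in MOD calves, with an adjusted permutation p of 0.436 in both.

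To name the genes whose pattern was most like each of the 4, r was taken within each diet and averaged over the diets after Fisher's z transformation, and all 14938 other genes tested were ranked by this likeness. The genes named are those of the study's list that carry a symbol. These values are descriptions over 13 and 15 calves that share libraries and scaling, without a test.

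Among genes with a symbol, SOST had the closest companion of the 4 genes. FAM217A, a little characterised gene, followed it with r = 0.96 in HI and 0.93 in MOD, the first of all 14938 genes, although its own level was only 0.20 to 5.31 CPM in HI and 0.75 to 11.5 CPM in MOD. Leaving out any 1 calf gave a likeness of at least 0.937. The genes lie on different chromosomes in the RefSeq gene table. Next came FST, encoding the activin-binding protein follistatin (r = 0.76 and 0.48, rank 56), and KLF11, a zinc finger transcription factor (r = 0.26 and 0.77, rank 163). HI calf 553 was the highest of its diet for both SOST and FST, and without it their likeness was 0.54, against 0.64. At the opposite end stood DIO3, the deiodinase that inactivates thyroid hormone (r = −0.79 and −0.72, rank 3 from the lowest), and ASIC4, of the acid-sensing ion channel family (r = −0.78 and −0.53, rank 21 from the lowest).

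CHL1 was followed by CAMK1D, a calcium/calmodulin-dependent kinase (r = 0.91 in HI and 0.80 in MOD, rank 2), by GREB1L (r = 0.85 and 0.74, rank 6) and by OSBPL3, an oxysterol-binding protein family member (r = 0.75 and 0.84, rank 7). HI calf 3620 and MOD calf 1057, the highest of their diets for CHL1, were also the highest for CAMK1D and GREB1L. Within the lower PRL range of HI calves CHL1 with CAMK1D gave r = 0.47 (exact permutation p = 0.311), and within the upper range 0.85 (exact permutation p = 0.0159, adjusted p = 0.143). DRD2, the dopamine receptor of lactotrophs, gave r = 0.61 in HI and 0.64 in MOD. Within the lower PRL range of HI it gave −0.20 (exact permutation p = 0.692) and within the upper range 0.08 (exact permutation p = 0.860). With 6 and 7 calves in these ranges such tests have little reach, and nothing is read from them. The lowest named genes were ISLR2, an immunoglobulin and leucine-rich repeat protein of the cell surface (r = −0.54 and −0.57, rank 192 from the lowest), and CX3CR1 (rank 286 from the lowest).

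SPON1 was most like TTC9B, a tetratricopeptide repeat protein (r = 0.69 in HI and 0.60 in MOD, rank 13). WFIKKN1, a secreted protein with protease inhibitor domains that binds growth factors of the TGF-beta family, followed (r = 0.66 and 0.60, rank 15). GPR139, a receptor, gave r = 0.75 and 0.35, rank 31. The lowest of all 14938 genes were ZNF750, a zinc finger protein (r = −0.71 and −0.56), and CCSER1 (r = −0.57 and −0.70).

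VCAN was ranked with MINAR2 (likeness 0.75, rank 2), FST (0.72, rank 4) and FSHB (0.69, rank 10). Leaving out HI calf 553 brought FSHB to 0.47, and among HI calves r fell from 0.71 to 0.39 for MINAR2 and from 0.75 to 0.48 for FST without it. The MOD side of these values spans the gap between the VCAN ranges. Within the lower 7 MOD calves r was −0.12 for MINAR2 and 0.33 for FST, and within the upper 8 it was 0.06 for both, with exact permutation p from 0.476 to 0.878. The lowest named genes were BEAN1 (likeness −0.55, rank 107 from the lowest) and CPT1B, a carnitine palmitoyltransferase of fatty acid oxidation (−0.51, rank 208 from the lowest).

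**Figure D2:**
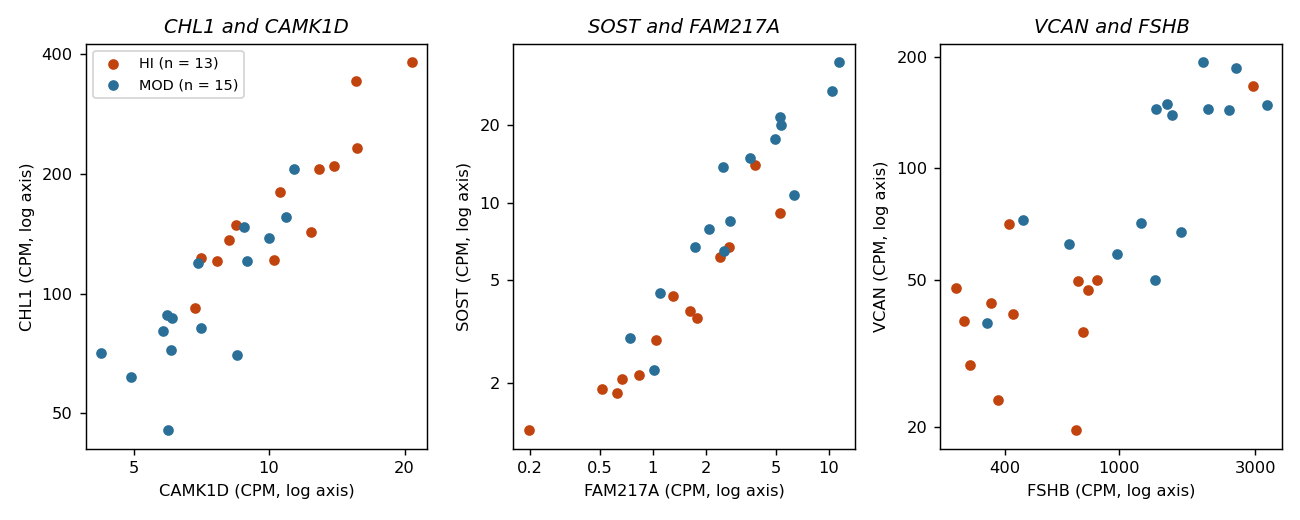
CHL1 against CAMK1D, SOST against FAM217A and VCAN against FSHB (CPM, both axes log) in 13 HI and 15 MOD calves, a point per calf. The first and second pairs rose together within each diet (r = 0.91 and 0.80, and 0.96 and 0.93, in HI and MOD), whereas VCAN lies at or above 139 CPM in 8 MOD calves and HI calf 553 and at or below 72.6 CPM in all others.

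**Figure D3:**
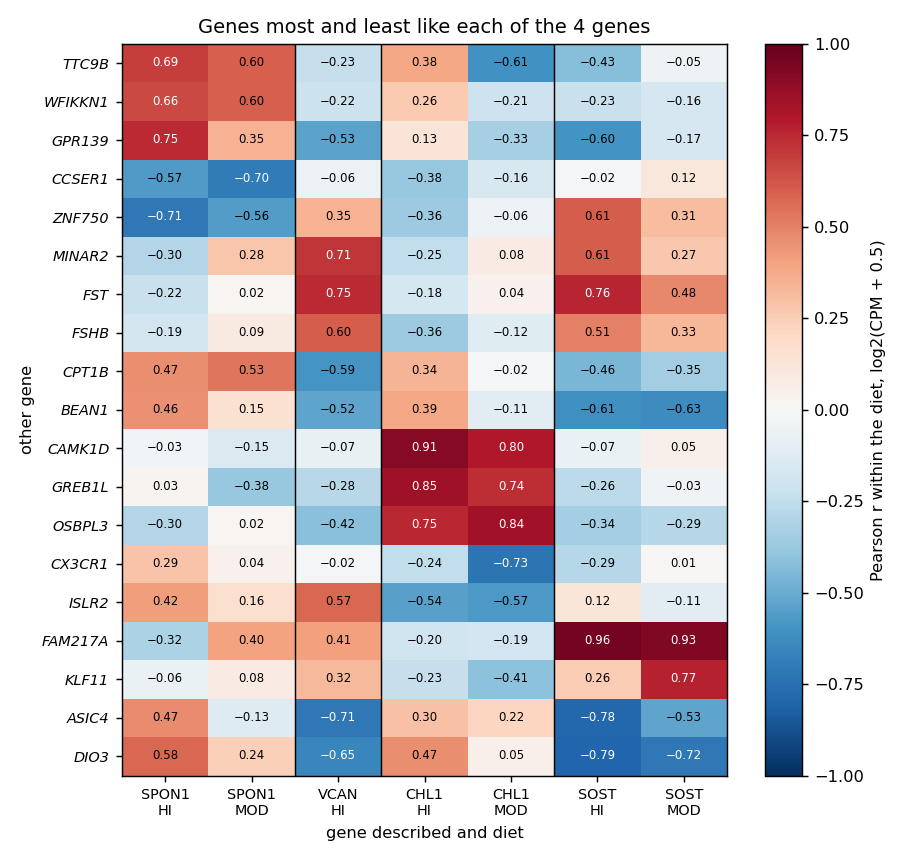
Pearson's r within a diet, on log2(CPM + 0.5), of SPON1, VCAN, CHL1 and SOST (columns) with the 3 highest and 2 lowest named genes of each (rows); VCAN in MOD is left out because its calves fell into separate ranges. FST was named for both VCAN and SOST, and FAM217A reaches 0.96 and 0.93 with SOST.

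Other genes of the matrix and of adhesion were followed through a list of 64 genes, of which 27 could be matched to an identifier. Because the pairs of identifier and symbol come from the study's list, these 27 were themselves selected on the diet difference in these calves, and their counts are no independent evidence of a direction. Of the 27, 13 rose and 3 fell in HI by limma, and 11 did not pass both thresholds. Over all genes tested 0.408% rose and 0.428% fell, and nothing is read from the difference for genes selected in this way. Their median difference was 0.61, against −0.0058 over all 14939 genes tested.

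For the proteoglycan and hyaluronan matrix to which VCAN belongs, 4 of 12 genes were matched, and 1 rose. This was GPC5, a membrane-bound heparan sulfate proteoglycan, with 18.9 ± 5.51 CPM in HI and 10.5 ± 2.71 CPM in MOD (SD, n = 13 and 15). HAPLN1, the link protein that fixes versican to hyaluronan, had 2.93 ± 1.29 CPM in HI and 1.63 ± 0.55 CPM in MOD and was not called. CSGALNACT1, an enzyme that starts chondroitin sulfate chains, had a difference of 0.54, and B3GAT1, a glucuronyltransferase, of 0.57, and neither was called. All 4 differences were positive where that of VCAN was negative. Among HI calves VCAN gave r = −0.69 with GPC5, −0.15 with B3GAT1, −0.07 with HAPLN1 and 0.03 with CSGALNACT1, as a description without a test. Calf 553, the highest for VCAN, was also the lowest for GPC5 in its diet, and without it these values were −0.37, −0.0014, 0.03 and −0.05. Over all MOD calves, across the gap in VCAN, the sign was opposite for GPC5, HAPLN1 and CSGALNACT1 and the same for B3GAT1.

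Of the collagens, other matrix proteins and matrix enzymes, 10 of 24 were matched, with 5 higher, 1 lower and 4 not called. COL27A1, a fibrillar collagen, had 59.9 ± 20.9 CPM in HI and 31.7 ± 8.97 CPM in MOD, a difference of 0.89 with a standard error of 0.16. ADAMTSL3 (0.80), ANGPTL2 (0.71), CLEC3B, which encodes tetranectin (0.67), and C1QTNF6 (0.63) also rose. PAPPA2, a protease that cleaves insulin-like growth factor binding proteins, fell from 23.5 ± 10.3 CPM in MOD to 11.3 ± 4.86 CPM in HI, a difference of −1.01 with a standard error of 0.19. MMRN1 (0.57), CPZ (0.53), MMP11 (0.49) and C1QTNF7 (−0.57) were not called.

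Of the adhesion and guidance genes, the group of CHL1, 10 of 16 were matched, with 6 higher, 1 lower and 3 not called. The cadherins CDH23 (0.85) and PCDH15 (0.78), which pair with each other in the inner ear, rose, as did OMG, the oligodendrocyte myelin glycoprotein (0.67), PARVB, of focal adhesions (0.62), the plexin PLXNB3 (0.61) and the semaphorin SEMA6C (0.60). ADGRG2, an adhesion-type receptor, fell (−0.60). MSLN (0.69), CRB2 (0.56) and ISLR2 (−0.50) were not called.

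Of the secreted inhibitors of BMP, Wnt or activin, to which SOST belongs, 3 of 12 were matched. BMPER, a BMP-binding protein, fell from 2.42 ± 0.92 CPM in MOD to 0.97 ± 0.74 CPM in HI, a difference of −1.08 with a standard error of 0.20. WFIKKN1 rose from 4.13 ± 1.27 CPM in MOD to 8.29 ± 2.93 CPM in HI, a difference of 0.90 with a standard error of 0.16. FST had 4.21 ± 3.72 CPM in HI and 8.79 ± 5.80 CPM in MOD, a difference of −1.02 with a standard error of 0.31 that was not called. Among calves, as a description without a test, SOST followed FST but not BMPER, for which r was 0.21 in HI and −0.33 in MOD.

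**Figure D4:**
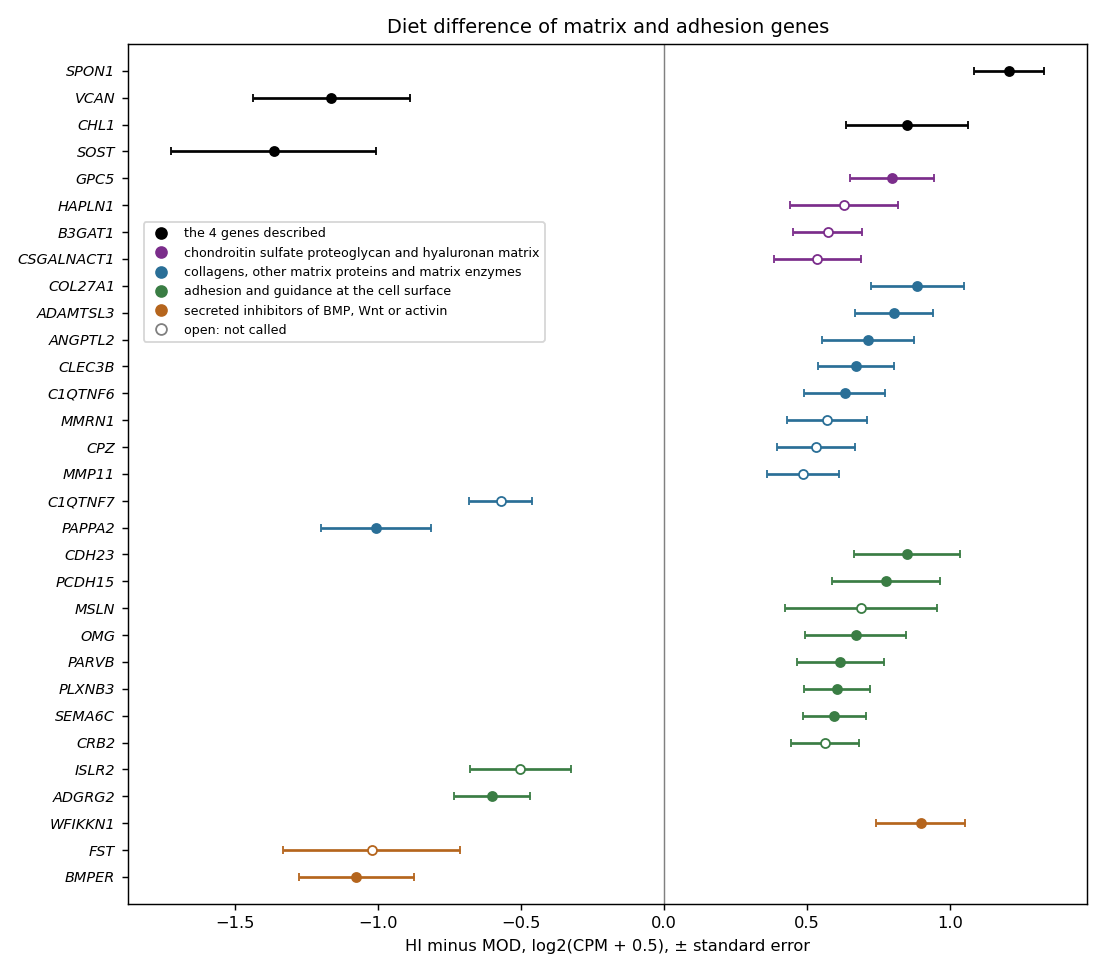
HI minus MOD difference on the log2(CPM + 0.5) scale with its standard error (limma, 13 HI and 15 MOD calves) for the 4 genes described and for the 27 matched matrix, adhesion and inhibitor genes, coloured by group; open points were not called. VCAN (−1.16) and SOST (−1.36) lie with PAPPA2, BMPER and FST at or below −1.01, and SPON1 (1.21) lies highest.

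Over these 27 genes the likeness to SPON1 had a median of 0.24, and 14 were positive and 2 negative in both diets. The largest after WFIKKN1 was CLEC3B, with r = 0.56 in HI and 0.50 in MOD. Over all 14938 genes the median likeness to SPON1 was −0.0039, with 26.0% positive and 27.4% negative in both diets. The list median was 0.09 for CHL1 (10 positive and 4 negative in both diets, against 28.4% and 28.7% of all genes), −0.07 for VCAN (6 and 8, against 25.2% and 27.2% of all genes) and −0.20 for SOST (2 and 12). For SOST the median over all genes was −0.011, with 24.8% positive and 25.9% negative in both diets. The 27 genes were selected on their diet difference, whereas the 14938 as a whole were not, so nothing is read from these medians and counts. No test was made of these lists.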

How the data were processed

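Messenger RNA of the anterior pituitary of 13 HI and 15 MOD calves was analysed, grouped by the sample labels, which differ from the study's text in the number of calves per diet. Per the labels, libraries were made with a stranded kit. According to the study's methods, cutadapt took off adapters, STAR placed the reads on ARS-UCD1.2, and reads were counted per gene. The submitters' processing notes give version 2.6 of cutadapt and 2.6.1 of STAR, and the methods give others. Whether the counting used strand is not given in the sources used here. The values deposited by the authors are a normalized signal, CPM on TMM-adjusted library sizes, not raw counts. A single read stood for 0.0482 to 0.0830 CPM depending on the library, and division by it returned whole reads for 100% of values, within 0.01 of a read. No library was a copy of another (chi-square per gene of at least 12.2 for any pair of calves).

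The diet difference was fitted with limma (3.58.1, R 4.3.3; trend, robust) on log2(CPM + 0.5) across the 14939 genes passing filterByExpr of edgeR (4.0.16), with Benjamini-Hochberg adjustment. A call was an adjusted p below 0.05 with a fold change above 1.5. On this scale the change of low genes is understated. The script was tested on simulated data. Relations within a diet were tested by 2-sided permutation with 100000 resamples, exact enumeration within ranges of 6 to 8 calves, and adjusted over 12, 56 and 18 relations. A gene was taken to fall into separate ranges where its largest log2 gap was 33.3% of its range or more with at least 3 calves on each side, a rule set after the data were seen. P-values measure the spread between calves.

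The members and gene lists were chosen with earlier results of these data known. Genes named are the 4 members, every matched gene of the matrix and adhesion list, the 3 highest and 2 lowest named genes by likeness, and the cell type and handling genes. Names came from the study's list of 195 identifiers, 159 with a symbol. That list's fold changes and p-values were not used. RefSeq gene positions (ARS-UCD2.0) served only to tell which genes neighbour each other. Alternatives were edgeR's quasi-likelihood test and DESeq2 (1.42.0) on recovered reads, other scalings, pseudocounts and filters, and leaving out calves. Calves had been allocated to diets within blocks, but the labels give neither a block nor a batch, so neither entered a fit.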

Additional observations from a re-analysis of the deposited data

How the results depend on the processing

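The diet differences of the 4 genes kept their direction in all 32 values from other tests, scalings, pseudocounts and filters and in all 112 fits without 1 calf. Over the other settings they ran from 1.17 to 1.22 for SPON1, from −1.17 to −1.12 for VCAN, from 0.84 to 0.87 for CHL1 and from −1.53 to −1.11 for SOST. Without 1 calf they ran from 1.16 to 1.25, from −1.32 to −1.07, from 0.75 to 0.93 and from −1.51 to −1.24. The number of genes called between the diets was 125 in the main fit, 211 with DESeq2 on recovered reads and 69 with a pseudocount of 2, and the cause was not tested. It was 173 with edgeR's quasi-likelihood test and 100 to 170 without 1 calf. No relation between the 4 genes passed under any alternative. Without the 2 calves farthest from the median, 0 of the 56 relations with cell type and handling genes passed, against 3 with all calves. Their coefficients moved little, by 0.03 for CHL1 with PRL in HI, −0.06 for VCAN with FSHB in MOD and 0.03 for CHL1 with CX3CR1 in MOD, on 2 fewer calves each. The relation of CHL1 with CX3CR1 in MOD also lost its call, at r = −0.70, with the library total taken without PRL and CSHL1. No paired analysis was possible because the labels do not give the blocks within which calves were allocated, and calf numbers are not shared between the diets. Of the 4 genes SOST had the fewest reads, with a median of 48 in HI.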
